A study of Mus musculus with 12 samples.

Results

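Matrix metalloproteinases (Mmp genes), the ADAMTS proteases (Adamts genes) and the tissue inhibitors of metalloproteinases (Timp genes) were followed in mouse prostate tumors treated by intratumoral injection. The set was taken by symbol: every gene of the count files whose Ensembl identifier maps to Mmp, Adamts or Timp followed by a number. Mmp8 and Mmp9 were left out and placed in the list of neutrophil markers. The set holds 44 of the 49315 genes in the files: 21 Mmp, 19 Adamts and 4 Timp genes. RNA was sequenced from 12 TRAMP-C2 tumors, a transplantable line from a mouse prostate cancer model, grown under the skin of the right flank of male C57BL/6J mice that were 6 to 8 weeks old when the cells were injected. Tumors of about 200 mm3 were injected with 3 doses of 50 µl HBSS, the salt solution that served as vehicle, or with 2 doses of 10 µg cyto-IL-15, an interleukin-15 carrying a lipid tail that inserts into cell membranes. The other groups received 3 doses of 50 µg ADU-S100, a cyclic dinucleotide that activates the innate DNA-sensing adaptor STING, or both agents, and all tumors were taken on day 6. There were 3 tumors per group, named here by the study's tumor identifiers (HBSS 19, 22R and 22LL, cyto-IL-15 9R, 13 and 20LL, ADU-S100 17LL, 18R and 22LR, combination 20L, 22 and 28LL), and all came from the same transplanted line. The labels do not say whether each tumor had its own mouse, so p-values measure the spread between these tumors.

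Total counts ranged from 48772204 to 103700199 per tumor. Tumors 13 and 28LL stood apart: their log2 levels over 14141 expressed genes (mean of 1 or more in CPM, reads of a gene scaled to a common library size) correlated with those of any other tumor at r = 0.793 to 0.916, against 0.936 to 0.989 between the other 10 tumors. The labelled tissue was checked against epithelial markers of prostate cancer cells. The epithelial adhesion gene Epcam stood at 0.311 to 0.561 CPM in HBSS tumors and the keratin gene Krt18 at 0.109 to 0.968 CPM, both near 0. Its partner Krt8 ranged from 6.38 to 145 CPM. The summed level of the 9 fibroblast and matrix markers was 25967 to 34830 CPM in the same tumors, and such genes can be expressed by tumor cells of mesenchymal character as well as by fibroblasts. In whole tumors, more cells of a type and more RNA per cell cannot be told apart.

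Metalloproteinases are zinc enzymes made as inactive precursors that cut collagens, elastin, proteoglycans and cell-surface proteins. MMP14, anchored in the membrane, activates pro-MMP2 on the cell surface in a complex with TIMP2. ADAMTS enzymes process procollagens and cleave cartilage-type proteoglycans, and the TIMPs block both enzyme families to differing degrees. Stroma and infiltrating macrophages are known sources of many of these enzymes, and several Mmp genes are known targets of the AP-1 transcription factor.

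Of the 21 Mmp genes, 9 lie in a run of 13 neighboring genes on chromosome 9 (GRCm38 7272514 to 7699585 as the files give it, 427.072 kb), in the order Mmp13, Mmp12, Mmp1b, Mmp3, Mmp1a, Mmp10, Mmp27, Mmp20 and Mmp7. The run is shown at the level of sequence because both genes that edgeR called against HBSS lie in it. RefSeq promoter windows (GRCm38.p6, 250 bases before to 50 from each gene start) were found for 31 of the 44 genes, 34 windows in all. They were searched on both strands for the AP-1 motif TGANTCA and the TATA box TATAAA. AP-1 matches were found in 8 genes, all of them in this run, at 35 to 95 bases before the start, and in none of the 22 genes elsewhere that have a window. That is 23.5% of the 34 windows, against 7.81% of all 32851 windows in the table. TATA matches were found in 29.4% of the 34 windows against 13.6% of all. A match is a description of letters and no evidence that a factor binds there. The 5 windows below run from 110 bases before the start to 20 bases from it, on the plus strand, with the AP-1 match in capitals.
Mmp13 (chr9:7272404-7272533): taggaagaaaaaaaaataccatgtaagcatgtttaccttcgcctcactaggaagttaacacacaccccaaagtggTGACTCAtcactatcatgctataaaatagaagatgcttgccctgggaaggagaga
Mmp12 (chr9:7347264-7347393): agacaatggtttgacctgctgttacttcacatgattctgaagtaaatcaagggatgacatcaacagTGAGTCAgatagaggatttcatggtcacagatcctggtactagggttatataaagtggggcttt
Mmp3 (chr9:7445712-7445841): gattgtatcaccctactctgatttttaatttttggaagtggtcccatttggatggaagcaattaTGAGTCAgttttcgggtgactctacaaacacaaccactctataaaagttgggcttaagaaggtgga
Mmp10 (chr9:7502232-7502361): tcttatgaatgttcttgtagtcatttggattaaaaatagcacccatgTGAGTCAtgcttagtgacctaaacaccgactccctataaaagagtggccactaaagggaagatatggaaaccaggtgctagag
Mmp27 (chr9:7571286-7571415): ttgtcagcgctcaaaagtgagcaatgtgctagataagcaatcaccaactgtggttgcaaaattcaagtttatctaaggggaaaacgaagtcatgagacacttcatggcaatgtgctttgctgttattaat
The Mmp27 window holds no AP-1 match, although Mmp10 and Mmp20, the nearest genes of the set on either side of it, each have one. Mmp8, which is outside the set, lies between Mmp10 and Mmp27. For Mmp12 the window of the later of its RefSeq starts is shown, since the earlier one has no match.

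**Figure D1:**
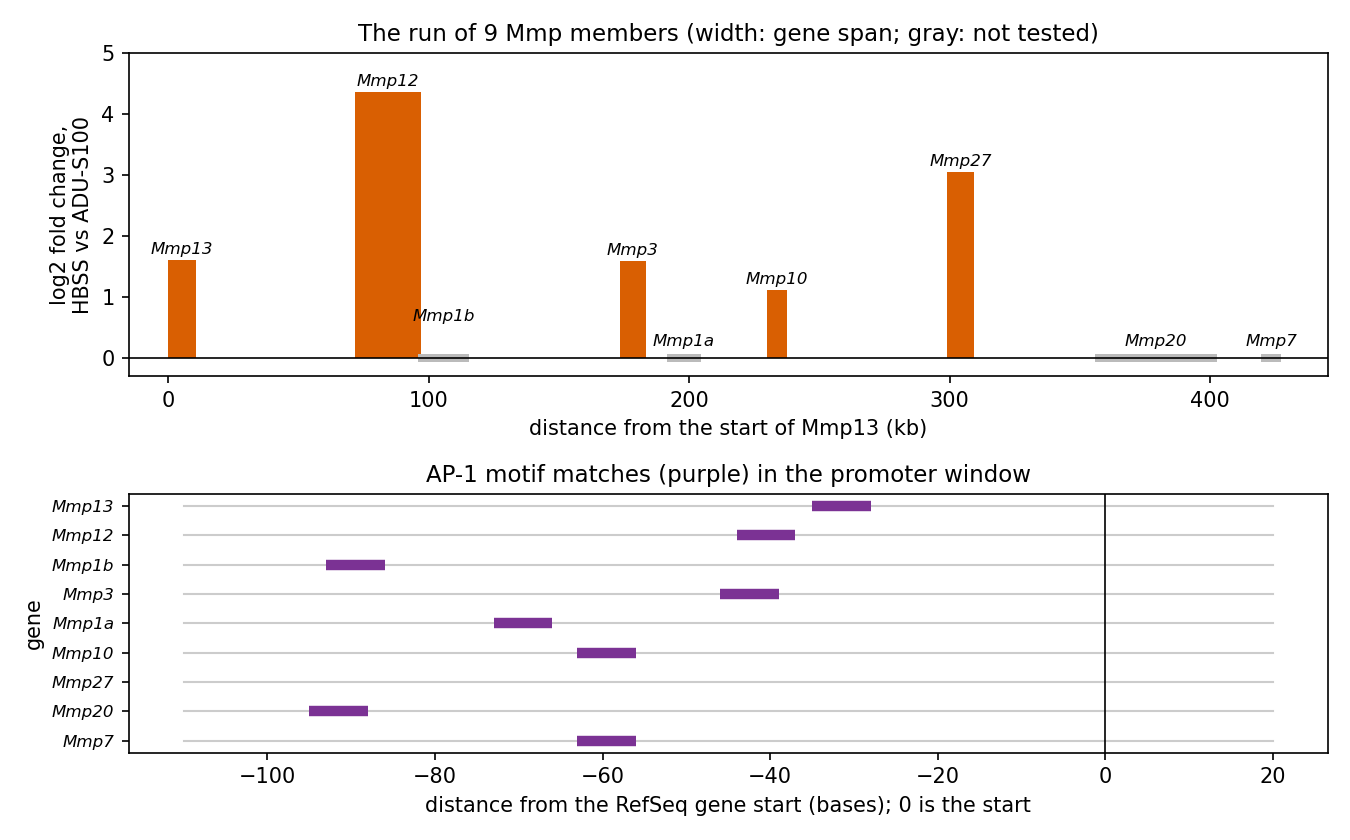
The upper panel plots the 9 Mmp genes of the run along the distance from the start of Mmp13 (kb, width of a bar is the gene span), with the log2 fold change of ADU-S100 over HBSS as height for the 5 tested genes and gray for the others. The lower panel marks the AP-1 motif match of each gene by its distance from the RefSeq start (bases, for Mmp12 the later start), which lies within 95 bases in 8 genes and is missing in Mmp27.

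Levels were compared between genes in HBSS tumors as CPM per kilobase of counted exon length, with CPM normalized by the trimmed mean of M values (TMM). Timp2 led with 295 ± 25.7 CPM per kb (SD, n = 3), followed by Mmp14 with 223 ± 17.8. These were well apart from the next genes, Timp1 with 68.8 ± 20.0 and Adamts14, a procollagen N-propeptidase, with 48.3 ± 9.47, which did not differ from each other beyond their spread. Mmp11, the stromal stromelysin-3, had 36.7 ± 2.32 CPM per kb and Mmp2, the gelatinase that cuts denatured and basement membrane collagen, had 31.0 ± 11.3, again within their spread. Timp3, the matrix-bound inhibitor, had 22.4 ± 11.8, and the stromelysin Mmp3 (16.6 ± 10.8), the aggrecan-cleaving Adamts4 (16.6 ± 2.45) and Mmp23 (16.4 ± 2.27) were indistinguishable.

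A mean of at least 10 CPM over the 12 tumors was reached by 25 genes, and 31 reached 1 CPM. The 13 genes under 1 CPM include Timp4, the inhibitor known from heart, and Mmp7 (matrilysin), both collagenase-1 homologs Mmp1a and Mmp1b, the enamel protease Mmp20 and Adamts13, which cleaves von Willebrand factor. Of these, 6 had a mean under 0.1 CPM, and Mmp7 did not exceed 0.0385 CPM in any tumor. There were 8 genes with no count in at least 1 tumor.

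**Figure D2:**
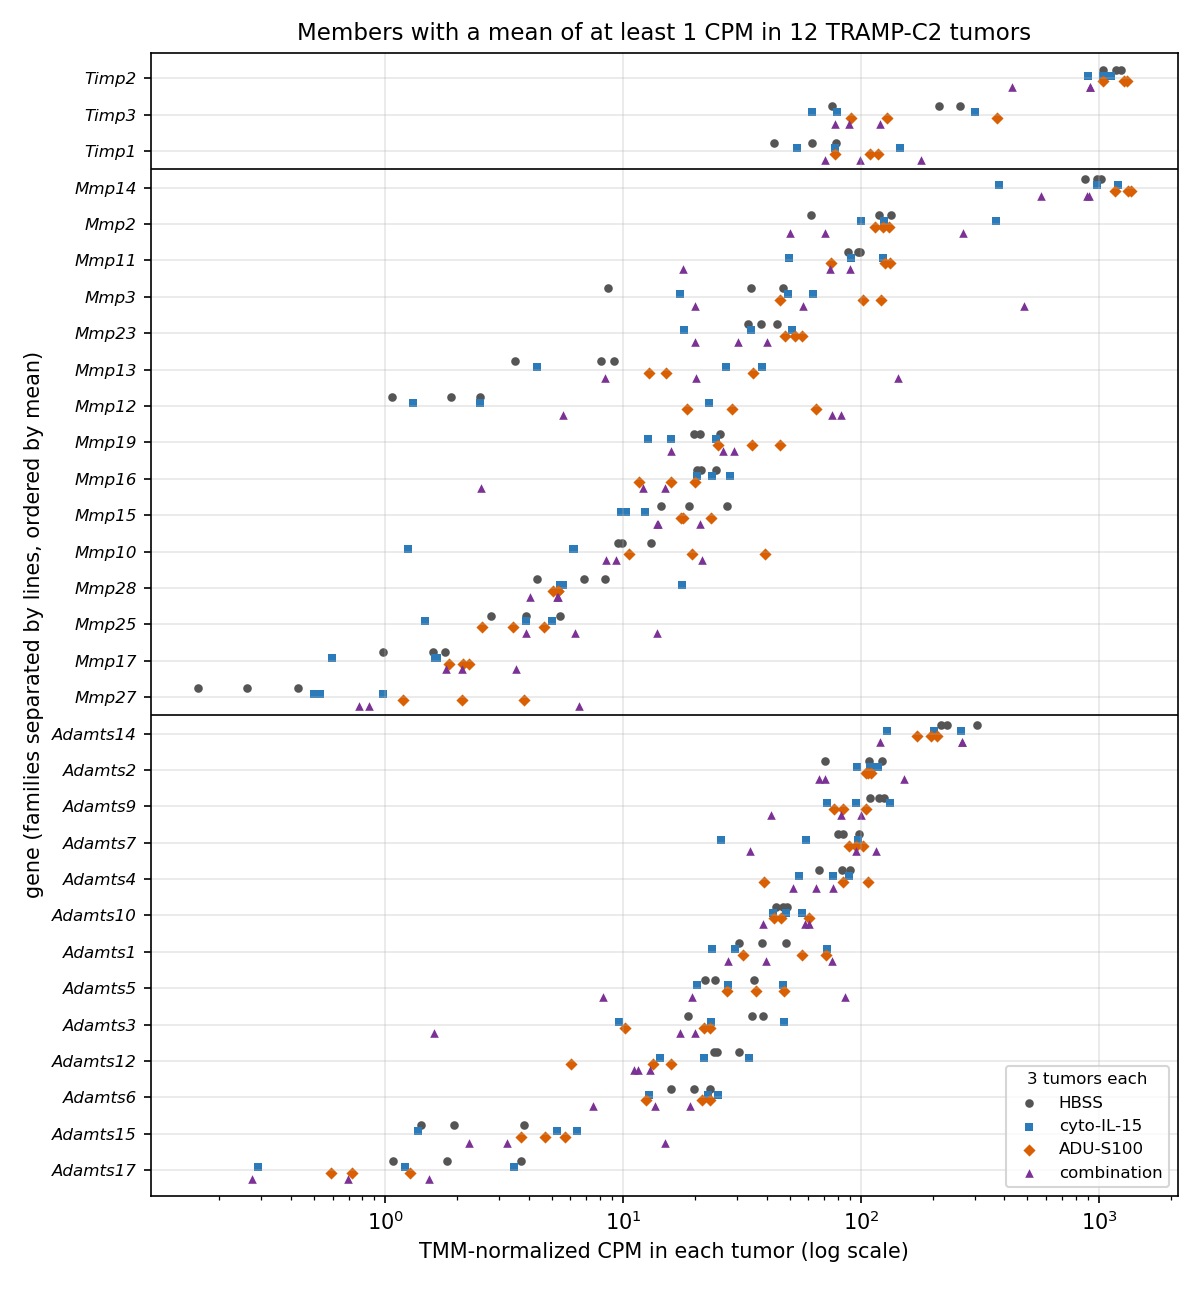
Each point is the TMM-normalized CPM (log scale) of 1 tumor for the 31 genes that averaged 1 CPM or more, with families separated by lines and treatments by color and marker. Timp2 and Mmp14 lie highest, and the widest spreads belong to Mmp12, Mmp3, Mmp13 and Mmp27, whose highest tumor is 28LL.

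Single genes carried most of the summed level of the Mmp genes of the set and of the Timp genes. In the 10 tumors other than 13 and 28LL, Mmp14 made up 67.4 to 74.7% of the CPM of the 21 Mmp genes. Timp2 made up 73.1 to 89.8% of all Timp CPM in these tumors. Mmp8 and Mmp9 are outside the set, and with them the share of Mmp14 would be lower. In those 2 tumors the share of Mmp14 lay under that range, at 38.7% in tumor 13 and 34.1% in tumor 28LL. Tumor 13 had the highest Mmp2 of the series, at 370 CPM, and tumor 28LL the next, at 269 CPM, whereas the other tumors lay between 50.3 and 133 CPM. Of the 31 genes that averaged 1 CPM or more, 28 had their highest or their lowest value in one of these tumors. Tumor 28LL held the highest value of 12 genes and the lowest of 9, and tumor 13 the highest of 4 and the lowest of 8.

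The first question of the design was what each agent changed against vehicle. In ADU-S100 tumors 2 of the 36 tested genes were called, both higher: Mmp12 and Mmp27. A call needed an adjusted p under 0.05 (edgeR quasi-likelihood test with Benjamini-Hochberg adjustment over all tested genes) and an absolute log2 fold change above 1. Among all genes tested 3.53% were called in either direction and 2.75% were called higher, so the count in this set was near the background. DESeq2 called 4 of the 44 genes of the set that it tested in this comparison, beside 2.99% of all 37614 genes it tested. Unadjusted p under 0.05 was seen for 13 of the 36 genes (36.1%), beside 23.9% of all genes tested by edgeR.

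Mmp12 encodes macrophage metalloelastase, which cuts elastin and is a product of macrophages. The gene (ENSMUSG00000049723) spans 7344381 to 7369499 on chromosome 9. Its levels were 1.06, 2.5 and 1.89 CPM in HBSS tumors 19, 22R and 22LL, and 28.6, 18.5 and 64.8 CPM in ADU-S100 tumors 17LL, 18R and 22LR. Every ADU-S100 tumor lay above every HBSS tumor, and tumor 22LR was the highest. The log2 fold change was 4.36 (SE 0.60, adjusted p = 0.0182 by edgeR), a 20.6-fold difference on the linear scale of the fit. The call was lost, at adjusted p = 0.0518 to 0.0798, without HBSS tumor 19, 22R or 22LL or without ADU-S100 tumor 17LL, and at 0.359 in an edgeR fit that took its spread from all 12 tumors. That fit called 0 of 20132 tested genes in this comparison. The call of Mmp12 was also lost with the 10 tumors other than 13 and 28LL (adjusted p = 0.0649) and without a filter on low counts (0.0506). The log2 fold change itself stayed between 3.70 and 4.69 when any 1 tumor was left out. Mmp12 shares 157 exon bases with Mmp1b on the opposite strand, which had a mean of 0.0234 CPM.

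Mmp27 encodes a little-studied metalloproteinase, and the gene (ENSMUSG00000070323) spans 7571396 to 7581885 on chromosome 9. It was low: 0.262, 0.163 and 0.429 CPM in HBSS tumors 19, 22R and 22LL, and 2.11, 1.19 and 3.82 CPM in ADU-S100 tumors 17LL, 18R and 22LR. The groups did not overlap, and HBSS values rested on 12 to 39 counts per tumor. The log2 fold change was 3.05 (SE 0.52, adjusted p = 0.0156 by edgeR). It was lost as a call without HBSS tumor 19 (adjusted p = 0.0676), without 22R (0.0572) and in the fit of all 12 tumors (0.359).

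The other 3 tested genes of the chromosome 9 run were also higher in the mean of ADU-S100 tumors, but none of them was called. Mmp13, the main interstitial collagenase of the mouse, was at 9.12, 3.52 and 8.10 CPM in HBSS tumors 19, 22R and 22LL and at 15.1, 12.8 and 35 CPM in ADU-S100 tumors 17LL, 18R and 22LR. The groups did not overlap, with a log2 fold change of 1.61 (SE 0.51, adjusted p = 0.126 by edgeR). Mmp3, a stromelysin that cuts proteoglycans and activates other pro-MMPs, was at 46.7, 8.63 and 34.5 CPM against 101, 45.4 and 121 CPM in the same order. Here ADU-S100 tumor 18R lay just under HBSS tumor 19, and the log2 fold change of 1.59 (SE 0.72) had an adjusted p = 0.266 by edgeR. Mmp10, stromelysin-2, was at 13.1, 9.88 and 9.47 CPM against 19.5, 10.6 and 39.5 CPM. Its groups overlapped as well, through tumor 18R (log2 fold change 1.11, SE 0.46, adjusted p = 0.211 by edgeR), and without that tumor it was called, at a log2 fold change of 1.46 and an adjusted p = 0.0479. Across the 5 tested genes of the run the median log2 fold change was 1.61, beside 0.25 for the 10 tested Mmp genes elsewhere and 0.03 for all genes. The run was singled out because both called genes lie in it, and both count in its median, so the contrast is partly set by that choice. Neighboring genes are not independent of each other, and this contrast was not tested.

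**Figure D3:**
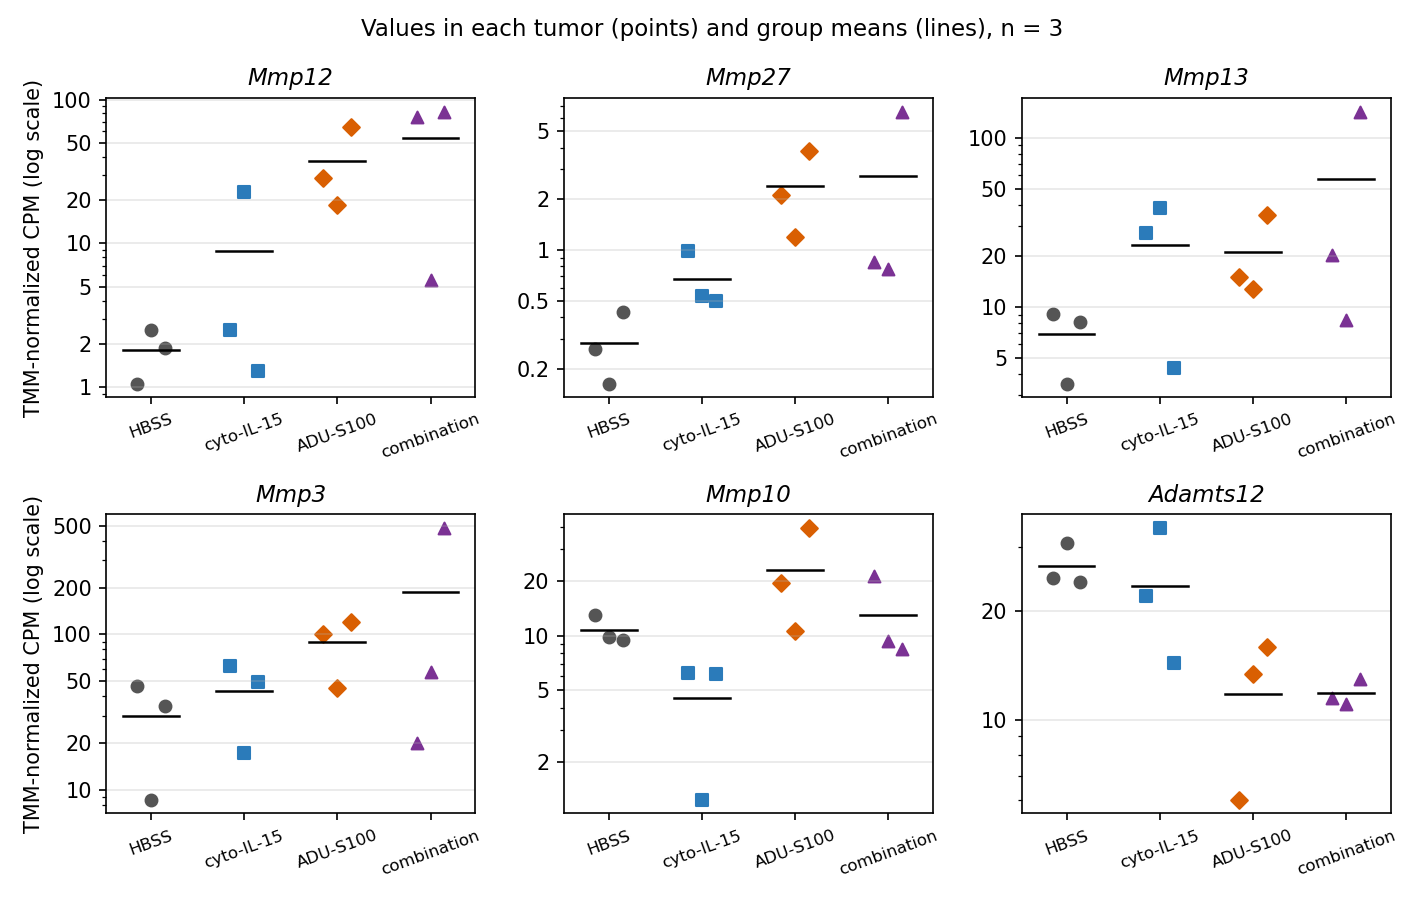
Each panel plots TMM-normalized CPM (log scale) of a gene in each of the 12 tumors by treatment, with lines at the group means (n = 3). For Mmp12 and Mmp27 all ADU-S100 and combination tumors lie above all HBSS tumors, and for Adamts12 they all lie below.

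Mmp14 was above every HBSS value in all ADU-S100 tumors without passing the test. Its levels were 1022, 875 and 982 CPM in HBSS tumors 19, 22R and 22LL and 1171, 1323 and 1360 CPM in ADU-S100 tumors 17LL, 18R and 22LR, with a log2 fold change of 0.44 (SE 0.12, adjusted p = 0.0629 by edgeR). Mmp23 (log2 fold change 0.46, SE 0.13) and Mmp19 (0.68, SE 0.20) had adjusted p = 0.0705 and 0.0791 by edgeR. The groups of Mmp23 were apart, at 33.5 to 44.1 against 47.6 to 56.2 CPM. Reads of Mmp19 may be shared with Tmem198b on the opposite strand, since 789 of its exon bases overlap that gene and the strand setting of the counting is not given in the sources used here.

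Among the Adamts genes none was called by edgeR in ADU-S100 tumors. Adamts12, which can cleave cartilage oligomeric matrix protein (ENSMUSG00000047497, chromosome 15, 11064790 to 11346867), stood at 24.7, 30.8 and 24.0 CPM in HBSS tumors 19, 22R and 22LL. It stood at 6.01, 13.4 and 15.9 CPM in ADU-S100 tumors 17LL, 18R and 22LR, all below the lowest HBSS value (log2 fold change -1.16, SE 0.31, adjusted p = 0.0743 by edgeR). The Wald test of DESeq2 called it, with an adjusted p = 0.000741. Adamts17 (log2 fold change -1.33, SE 0.48, adjusted p = 0.139 by edgeR and 0.0230 by DESeq2) had values of 1.08 to 3.72 CPM in HBSS and 0.588 to 1.27 CPM in ADU-S100 tumors, which overlap. Adamts9, a proteoglycan-cleaving enzyme, lay at 109 to 125 CPM in HBSS and 76.9 to 105 CPM in ADU-S100 tumors (log2 fold change -0.39, SE 0.13, adjusted p = 0.109 by edgeR). Adamts10 and Adamts2 moved by less than their standard error, with log2 fold changes of 0.12 (SE 0.15) and 0.12 (SE 0.19).

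Counted over the set, 6 of 36 tested genes had every ADU-S100 tumor above every HBSS tumor (Mmp12, Mmp13, Mmp14, Mmp17, Mmp23 and Mmp27), beside 15.8% of all genes tested. In the other direction there were 4 (Adamts9, Adamts12, Adamts14 and Mmp16), beside 15.4% of all genes. Both counts were close to these background shares. By family the median log2 fold change was 0.46 for 15 tested Mmp genes, -0.03 for 17 Adamts genes and 0.16 for 4 Timp genes.

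Markers of other cells moved between the same groups. Of 7 inflammatory monocyte markers, 6 were called higher in ADU-S100 tumors, with a summed level of 111 to 214 CPM in HBSS and 279 to 624 CPM in ADU-S100 tumors. Of 9 tested neutrophil markers 5 were called higher, while their sum, most of it Mmp9, was 704 to 787 against 666 to 820 CPM. Mmp8, a neutrophil collagenase that lies in the chromosome 9 run but outside the set, was among the list and stood at 0.0982 to 0.272 CPM against 3.36 to 16.1 CPM. Of 6 pan-macrophage markers 1 was called higher, with a median log2 fold change of 0.13 and sums of 966 to 1180 CPM in HBSS against 726 to 972 CPM in ADU-S100 tumors, and 5 of the 6 had an unadjusted p under 0.05. Of 10 resident-type macrophage markers 4 were called lower, with sums of 2732 to 3398 against 1619 to 2288 CPM, and 3 of 7 pericyte markers were called lower (sums of 400 to 724 against 247 to 355 CPM). Skeletal muscle fiber markers summed to 10.3 to 12.8 CPM in HBSS and 201 to 2210 CPM in ADU-S100 tumors, and 6 of 12 were called higher. Of 6 NK and T cell markers 4 were called higher, with sums of 19.8 to 32.1 against 93.5 to 178 CPM. None of the 9 fibroblast markers was called, with sums of 21382 to 29026 CPM in ADU-S100 tumors. The part of these cells in the differences of Mmp12, Mmp27 and the other genes was not tested.

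In combination tumors no gene of the set was called against HBSS by edgeR, and none of all 18565 tested genes was (0%). Over all genes edgeR called 247 without tumor 28LL and 316 with the 10 tumors other than 13 and 28LL. Unadjusted p under 0.05 was seen for 5 of the 35 tested genes of the set (14.3%), beside 18.2% of all genes. DESeq2 called 4 of the 44 genes of the set that it tested, Mmp12, Mmp13 and Mmp27 higher and Adamts12 lower, beside 3.04% of all 38026 genes it tested. Mmp12 reached its highest values here, with 75.4, 5.57 and 82.5 CPM in combination tumors 20L, 22 and 28LL. Tumor 22 lay far under the others but above all HBSS tumors (log2 fold change 4.94, SE 1.04, adjusted p = 0.185 by edgeR and 2.57e-07 by DESeq2). Mmp27 was at 0.854, 0.773 and 6.53 CPM (log2 fold change 3.27, SE 1.01, adjusted p = 0.212 by edgeR and 0.00520 by DESeq2), so that the mean was set by tumor 28LL although the groups did not overlap. Without that tumor its log2 fold change was 1.52.

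The Mmp13 and Mmp3 values of the combination rested on 1 tumor. Mmp13 was at 20.2, 8.40 and 142 CPM and Mmp3 at 20.0, 56.9 and 485 CPM in combination tumors 20L, 22 and 28LL. Their log2 fold changes were 3.08 (SE 1.09, adjusted p = 0.235 by edgeR) and 2.68 (SE 1.25, adjusted p = 0.308). Without tumor 28LL they were 1.08 and 0.38. In each gene 1 of the other combination tumors lay within the HBSS range and 1 above it. Over the 3 combination tumors the marker sums were 294 to 1788 CPM for inflammatory monocytes, 1847 to 3093 CPM for resident-type macrophages, 138 to 3812 CPM for NK and T cells and 67.3 to 5235 CPM for muscle fibers. Tumor 28LL had the highest sums of inflammatory monocyte, NK and T cell and muscle fiber markers of the series, and their part in these values was not tested.

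Adamts12 had the smallest standard error of the 35 tested genes in combination tumors. It stood at 11.5, 11.1 and 13.0 CPM in tumors 20L, 22 and 28LL, all below the lowest HBSS value of 24.0 CPM, with a log2 fold change of -1.13 (SE 0.17, adjusted p = 0.185 by edgeR and 1.53e-05 by DESeq2). Without tumor 28LL, edgeR called it, with an adjusted p = 0.0224 and a log2 fold change of -1.21. Timp2 was at 918, 913 and 429 CPM, below HBSS values of 1039 to 1232 CPM, with a log2 fold change of -0.59 (SE 0.30, adjusted p = 0.342 by edgeR) that became -0.31 without 28LL. The fibroblast marker sum lay at 12472 to 18948 CPM in combination tumors, below all HBSS tumors, and its part in Adamts12 and Timp2 was not tested. Adamts12 showed similar means under ADU-S100 and the combination, 11.7 ± 5.13 and 11.8 ± 1.00 CPM (SD, n = 3).

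**Figure D4:**
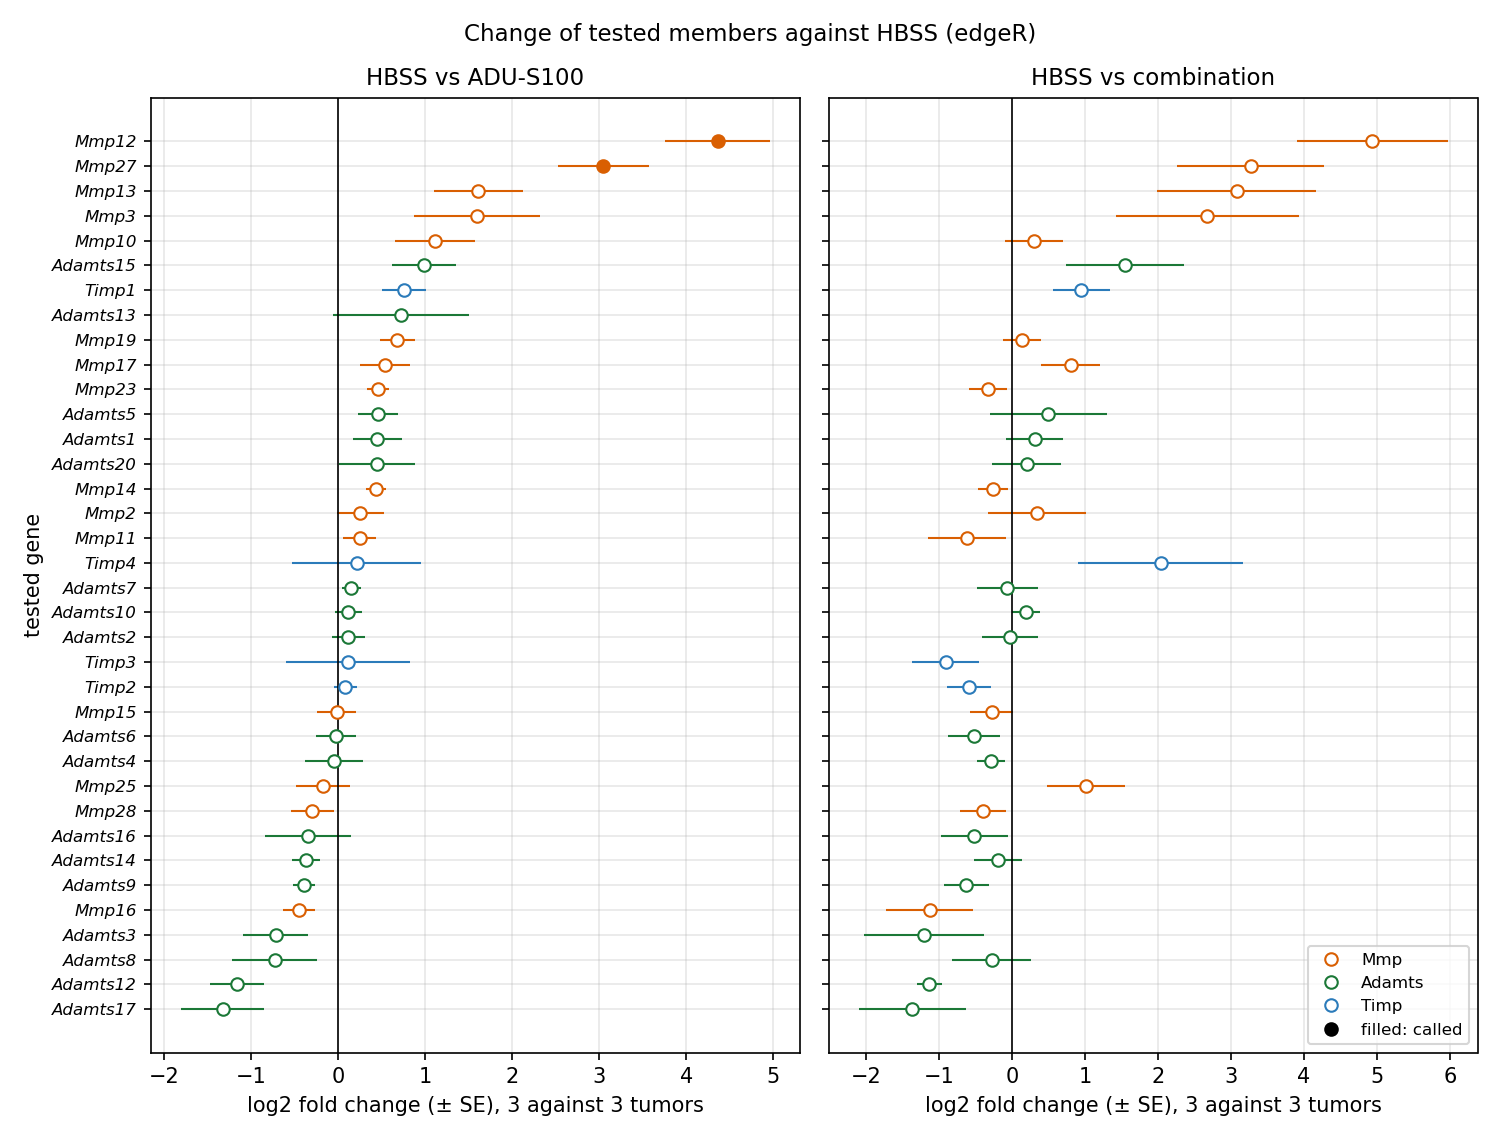
Log2 fold changes with standard errors (edgeR, 3 against 3 tumors) of the tested genes in ADU-S100 and combination tumors over HBSS, colored by family and ordered by the left panel, with called genes filled. Mmp12 and Mmp27 are the filled points, both on the left, and standard errors on the right are wider for most genes.

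Over the set, 3 of 35 tested genes had every combination tumor above every HBSS tumor (Mmp12, Mmp17 and Mmp27), beside 13.9% of all genes, and 4 had every combination tumor below (Adamts9, Adamts12, Mmp16 and Timp2), beside 16.4%. Both counts were under the background. Mmp16, a membrane-type enzyme, was at 2.52 CPM in tumor 28LL, and its log2 fold change of -1.13 (SE 0.59) had an adjusted p = 0.347 by edgeR. The 5 tested genes of the chromosome 9 run all had positive log2 fold changes, with a median of 3.08 beside -0.27 for the 10 other tested Mmp genes. Without tumor 28LL the medians were 1.08 and -0.14, and without tumor 20L 4 of the 5 were positive. The ADU-S100 and combination comparisons share the HBSS tumors.

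In cyto-IL-15 tumors no gene of the set was called against HBSS by edgeR or by DESeq2. None of all 18594 tested genes was called by edgeR (0%), while DESeq2 called 0.301% of its 38175 genes. Of the 35 tested genes of the set 2 had an unadjusted p under 0.05, beside 3.8% of all genes. Without tumor 13 edgeR called 179 of 19517 genes, and 32 of 20675 with the 10 tumors other than 13 and 28LL. No gene of the set was among them. Without tumor 13, 7 of 37 tested genes of the set had an unadjusted p under 0.05 by edgeR, beside 1951 of all genes. Mmp10 was lower in every cyto-IL-15 tumor, at 6.21, 1.24 and 6.14 CPM in tumors 9R, 13 and 20LL (log2 fold change -1.24, SE 0.59, adjusted p = 0.898 by edgeR). Mmp15, another membrane-type enzyme, lay at 9.75 to 12.3 CPM against 14.4 to 27.2 CPM in HBSS tumors (log2 fold change -0.89, SE 0.26, adjusted p = 0.898 by edgeR). Mmp27 was the only tested gene of the set with every cyto-IL-15 tumor above every HBSS tumor, at 0.981, 0.532 and 0.5 CPM, where 4.38% of all genes were above and 6.17% below. Mmp12 was at 2.5, 22.9 and 1.31 CPM, high in tumor 13 alone. Adamts16 had the largest fitted difference (log2 fold change 2.62, SE 1.35, adjusted p = 0.898 by edgeR), which came from 4.69 CPM in tumor 13 and turned to -0.13 without it.

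Between treated groups, no gene of the set was called by edgeR. In ADU-S100 against cyto-IL-15 tumors 0.0855% of all genes were called in either direction, all of them higher in ADU-S100 tumors (0.0855%), and 5 of 34 tested genes of the set had an unadjusted p under 0.05 (14.7%), beside 7.85% of all genes. Mmp10 had its lowest levels under cyto-IL-15 and its highest under ADU-S100, and DESeq2 called it higher in the latter (log2 fold change 2.33, SE 0.71, adjusted p = 0.602 by edgeR and 0.0298 by DESeq2). DESeq2 called 0.699% of its 38183 genes here. Among the 34 tested genes of the set, Mmp15 had the smallest adjusted p by edgeR in this comparison, 0.441, with a log2 fold change of 0.84 (SE 0.21). In combination against cyto-IL-15 tumors 0% of all genes were called, and 1 of 34 genes of the set had an unadjusted p under 0.05, beside 4.97% of all genes. In combination against ADU-S100 tumors 0% were called, with 2 of 35 beside 4.29%. Here Mmp14 (905, 887 and 573 CPM), Timp2 and Mmp23 were below all ADU-S100 tumors, with log2 fold changes of -0.69 (SE 0.21), -0.67 (SE 0.31) and -0.79 (SE 0.25) and adjusted p = 0.884 by edgeR for each. These were 3 of 35 tested genes, beside 1171 of all 18689 genes with every combination tumor below every ADU-S100 tumor. DESeq2 called no gene of the set in either of these comparisons with the combination, beside 0.288% of all its genes against cyto-IL-15 and 0.0108% against ADU-S100. The interaction over 12 tumors asked whether adding cyto-IL-15 had another effect in the presence of ADU-S100. No gene of the set and 0% of 20132 tested genes were called by edgeR, no gene of the set had an unadjusted p under 0.05 beside 2.29% of all genes, and DESeq2 called none of all genes (0%). With the 10 tumors other than 13 and 28LL, 8 of 38 genes had an unadjusted p under 0.05 by edgeR, beside 1706 of 20675 genes. In those tumors it was 9 of 38 beside 1635 for combination against ADU-S100, and 5 of 38 beside 2458 against cyto-IL-15. No gene of the set was called in these fits.

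The inhibitors were set beside the enzymes. Timp1, the inducible inhibitor, was at 62.0, 42.9 and 78.4 CPM in HBSS tumors 19, 22R and 22LL and at 117, 77.3 and 109 CPM in ADU-S100 tumors 17LL, 18R and 22LR, overlapping by a narrow margin (log2 fold change 0.75, SE 0.25, adjusted p = 0.125 by edgeR). In combination tumors it was at 70.5, 98.6 and 179 CPM (log2 fold change 0.95, SE 0.39, adjusted p = 0.273 by edgeR). Timp3 spread widely within groups, from 75.4 to 260 CPM in HBSS and from 90.8 to 373 CPM in ADU-S100 tumors, and its exons overlap those of Syn3 on the opposite strand, itself at a mean of 0.404 CPM. Timp4 stayed under 0.3 CPM except for 1.54 CPM in tumor 28LL.

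The CPM of the 21 Mmp genes of the set summed to 1175 to 1426 in HBSS tumors and to 1655 to 2017 in ADU-S100 tumors. These ranges did not overlap, and most of the sum is Mmp14 in the tumors of both groups. Mmp8 and Mmp9 are not in these sums, although Mmp9 made up most of the neutrophil marker sum. Which family sum is the higher therefore holds for the set only. Timp sums were 1158 to 1524 and 1247 to 1794 CPM, which overlapped. The ratio of Timp2 to Mmp14, which does not depend on the scaling of a library, was 1.16 to 1.25 in HBSS tumors, 0.887 to 0.964 in ADU-S100 and 0.749 to 1.03 in combination tumors. In cyto-IL-15 tumors it ran from 0.752 in tumor 9R to 2.74 in tumor 13. The ratio of the summed families had its extremes in the tumors that stood apart, 1.51 in tumor 13 and 0.434 in tumor 28LL. Adamts sums were the steadiest, 787 to 897 CPM in HBSS, 681 to 819 CPM in ADU-S100 and 672 to 755 CPM in combination tumors, and Adamts14 led them with 20.9 to 36.3% in the 10 other tumors. These sums and ratios are descriptions and were not tested.

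**Figure D5:**
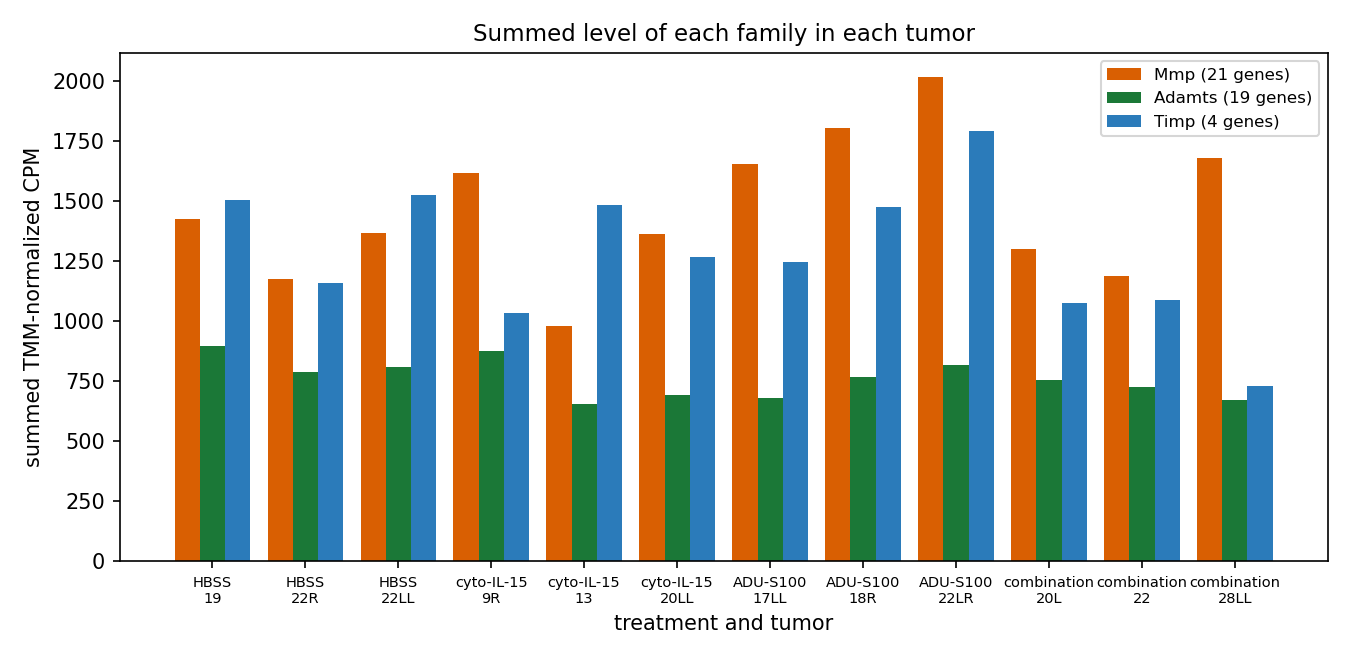
Bars give the summed TMM-normalized CPM of the 21 Mmp, 19 Adamts and 4 Timp genes in each of the 12 tumors. The Mmp sums leave out Mmp8 and Mmp9, so their order against the Timp sums holds for the set only. Mmp sums exceed Timp sums in 9 of 12 tumors, among them all ADU-S100 and combination tumors, and the gap is widest in combination tumor 28LL (1678 against 729 CPM), while tumor 13 shows the reverse (979 against 1482 CPM).

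The partners of these enzymes were taken from fixed lists. Of 12 genes for activators and other inhibitors (such as Plau, the urokinase gene, and the membrane inhibitor gene Reck), none was called against HBSS in any treatment, with median log2 fold changes of 0.29 in ADU-S100 and 0.11 in combination tumors. Of 7 ADAMTS-like genes, which encode proteins related to ADAMTS without the protease domain, none was called, with medians of 0.01 and -0.15. Of 19 matrix substrates such as collagens, fibronectin and versican, none was called among the 16 tested, with medians of -0.47 and -0.69. Over all tested genes the medians were 0.03 and 0.01. Unadjusted p under 0.05 was seen for 5, 2 and 5 genes of these lists in ADU-S100 tumors and for 3, 3 and 6 in combination tumors, beside 23.9% and 18.2% of all genes.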

How the data were processed

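RNA of 12 tumors was sequenced, and the files that the authors deposited hold raw read counts per Ensembl gene, 1 file per tumor. Per the submitters' processing notes, the tools include the aligner STAR 2.5.2b, the trimmer Trimmomatic 0.36 and the counter featureCounts (Subread 1.5.2), and the builds named are GRCm38 and mm10, without an order. The strand setting, the handling of multi-mapping reads and the annotation release are not given in the sources used here, so reads of exons shared with another gene are uncertain. Tumors were grouped by the treatment label. Each pairwise comparison was fitted on its own 6 tumors, and the interaction on all 12, in R 4.3.3 with edgeR 4.0.16 (TMM, filterByExpr with a minimum count of 10 and a minimum total of 15, robust quasi-likelihood test, Benjamini-Hochberg adjustment over all tested genes). Alternatives were DESeq2 1.42.0, RLE size factors, no filter on low counts, no fold-change threshold, all 12 tumors in one fit, the 10 tumors other than 13 and 28LL, and leaving out each tumor. Symbols were matched for 48970 of 49315 identifiers. Of the 44 genes, 36 had the same coordinates in GENCODE M21, 34 were tested in all 7 fits, 4 in some and 6 in none.

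The genes, lists and rules were chosen with earlier results of these data known. Named genes were those called, the Timp genes, the 4 with the smallest p in each direction against HBSS with a mean of at least 0.5 CPM, the 12 with the highest mean and the leading gene of each role. Mmp17, Mmp19, the low-count genes and those of the chromosome 9 run that fall outside this rule were named after their values were seen. Depth limits the precision for genes under 1 CPM. Some marker genes and a further promoter motif are not reported here.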

Additional observations from a re-analysis of the deposited data

How the results depend on the processing

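The number of genes called in ADU-S100 tumors against HBSS was 2 in the analysis as reported. It was 4 with DESeq2 (Mmp12 and Mmp27 higher, Adamts12 and Adamts17 lower), 1 with the 10 tumors other than 13 and 28LL (Mmp27), 0 with all 12 tumors in one fit, and 0 to 3 when 1 tumor was left out. Without a filter on low counts 2 were called, Mmp27 and Adamts17, beside 997 of all 37685 genes. Over all genes edgeR called 556 of 20675 with the 10 tumors and 0 of 20132 in the fit of all 12. Leaving out 1 tumor gave 325 to 624 calls over all genes. For the combination against HBSS the number in the set was 4 with DESeq2, beside 1156 of 38026 genes. It was 0 to 1 when 1 tumor was left out, the 1 being Adamts12 without tumor 28LL, beside 0 to 247 calls over all genes. For ADU-S100 against cyto-IL-15 the number in the set was 1 with DESeq2 (Mmp10), beside 267 of 38183 genes. The count was 0 under every alternative run for the other comparisons and the interaction. Over all genes the alternatives called up to 179 of 19517 for cyto-IL-15 against HBSS (without tumor 13). They called up to 111 of 38489 for the combination against cyto-IL-15 and up to 4 of 37165 against ADU-S100 (both DESeq2). For the interaction they called 0. The log2 fold change of Adamts16 in cyto-IL-15 tumors reversed to -0.14 with the 10 tumors and to -0.13 without tumor 13, and ranged up to 3.19 when another tumor was left out; the cause is that 1 tumor carried it. In ADU-S100 tumors the small log2 fold changes of Adamts10 and Adamts2 ran from -0.077 (without tumor 17LL) to 0.20 and from -0.10 (without HBSS tumor 22R) to 0.29 when 1 tumor was left out. No other reported fold change turned direction under the alternatives run. The labels state no pairing of tumors between groups, and no paired analysis was run. Precision is limited by the 3 tumors per group and by the 2 tumors that stand apart. Genes whose counts were near 0 were not tested, which says nothing about their expression in single cell types.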
